A study of Drosophila melanogaster with 2 samples.

Results

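Divergent promoters are stretches of DNA from which neighbouring genes are transcribed in opposite directions, and 481 peaks of the GFP-tagged product of CG4282 lay close to starts on both strands, most but not all of them such pairs. They were taken from the 1985 optimal peaks deposited for this protein. A peak was counted when its summit, the position of highest signal, lay within 500 bp of at least 1 annotated transcription start on the plus strand and at least 1 on the minus strand. Of the other optimal peaks, 813 had starts on 1 strand only within that distance and 691 had no start. The choice used position and annotation, and the signal entered only through the authors' optimal list, which holds the 1985 strongest of 30000 pooled relaxed peaks.

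The study was a ChIP-seq experiment on whole Drosophila melanogaster embryos of both sexes, aged 0 to 24 h, from 1 stable transgenic line. The line expresses CG4282 fused to GFP at its C terminus, and chromatin was precipitated with an antibody against GFP. The group CG4282-GFP held 2 libraries, labelled biological replicates 3 and 4, and both came from this line. No untagged or untreated library was among the samples, whole embryos mix all cell types, and the labels do not say which promoter drives the fusion.

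In the compact fly genome many genes share a short upstream region with a neighbour on the other strand. Such regions are typical of broadly expressed housekeeping genes and often carry core promoter elements such as the DNA replication-related element (DRE), bound by Dref, rather than a TATA box. The insulator protein BEAF-32 recognises the word CGATA, which the DRE contains, and is known for binding close to paired genes. CG4282 encodes a zinc finger protein. Head to head starts are those whose transcripts run away from each other, and facing starts are those whose transcripts run towards each other and can overlap.

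The sequences around the summits show the elements counted further on. Each line gives DNA between the nearest starts of the minus-strand gene, named first, and of the plus-strand gene. It is read on the plus strand and free of annotated exons. In Hs2st/RanGAP the nearest start of RanGAP lies inside that gene, which begins at 19441959, so the line lies within RanGAP. They come from the dm6 assembly as held by RefSeq, and were chosen from the strongest members that hold each element, so that the letters behind the counts can be seen. Capitals mark the elements, with the DRE and BEAF-32 core in Ttc19/Acn, the BEAF-32 core (CGATA or its reverse complement TATCG) in Atat/Shc, the E-box CAGCTG and then Motif 7 in Hs2st/RanGAP, the word CACAGTG in DPCoAC/CG5180 and the E-box in RpS27/Nup37. mRpS23/CenG1A has none of these and no capitals.
Ttc19/Acn, chr2L:19045258-19045354: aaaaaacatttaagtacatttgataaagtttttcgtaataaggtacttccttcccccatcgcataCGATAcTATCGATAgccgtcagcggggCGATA
Atat/Shc, chr3L:9426835-9426935: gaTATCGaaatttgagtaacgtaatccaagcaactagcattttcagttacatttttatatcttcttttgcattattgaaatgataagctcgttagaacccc
Hs2st/RanGAP, chr2L:19444765-19444865: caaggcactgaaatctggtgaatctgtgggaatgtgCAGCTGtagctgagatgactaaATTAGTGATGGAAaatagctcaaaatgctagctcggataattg
DPCoAC/CG5180, chr3R:20557714-20557814: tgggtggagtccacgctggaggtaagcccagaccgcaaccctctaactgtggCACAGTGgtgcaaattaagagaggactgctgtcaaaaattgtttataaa
RpS27/Nup37, chr3R:25247515-25247575: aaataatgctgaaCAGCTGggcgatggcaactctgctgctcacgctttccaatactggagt
mRpS23/CenG1A, chr2L:13835408-13835508: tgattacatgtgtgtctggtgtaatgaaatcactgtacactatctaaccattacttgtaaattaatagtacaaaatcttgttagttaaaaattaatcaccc

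The summit is base 51 of each line except RpS27/Nup37, where it is base 11. The Ttc19/Acn line ends 1 bp before the start of Acn, which encodes acinus, and the RpS27/Nup37 line begins 1 bp after the start of RpS27, a protein of the small ribosomal subunit. Ttc19 encodes a mitochondrial assembly factor, Hs2st a heparan sulfate sulfotransferase and RanGAP the activator of the Ran GTPase in nuclear transport.

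The 481 summits lay close to 457 different pairs of nearest starts, and 24 of these pairs held more than 1 member, so neighbouring members can share a promoter. At Fur1 and Vps33B, for example, the intervals of 2 members overlapped (3R, 25473066 to 25473312 and 25473223 to 25473622). Starts of 957 genes lay within 500 bp of the members, of which 902 were protein-coding. Most members, 449, were near starts of 2 genes. A further 28 were near starts of 3 genes, 2 near starts of 4, 1 near starts of 5, and 1 near starts of 10, in the cluster of precursor genes of mod(mdg4).

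The nearest starts were head to head at 460 of the 481 members, or 95.6% (Wilson 95% interval, 93.4 to 97.1). Among the 1329 relaxed peaks between starts on both strands that overlapped no optimal peak, 89.6% were head to head. The summit itself lay between the starts at 360 of the 460 head to head members, 78.3% (74.3 to 81.8), against 646 of 1191 relaxed peaks, 54.2% (51.4 to 57.1). The intervals do not overlap, so optimal summits sat between the nearest starts more often than those of weaker peaks. The same share was 80.2% when the members' summits were taken from replicate 3 and 76.3% when they were taken from replicate 4. The summits of the 2 replicates lay a median of 27 bp apart at the members, 29 bp at optimal peaks with starts on 1 strand and 24 bp at those with none.

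**Figure D1:**
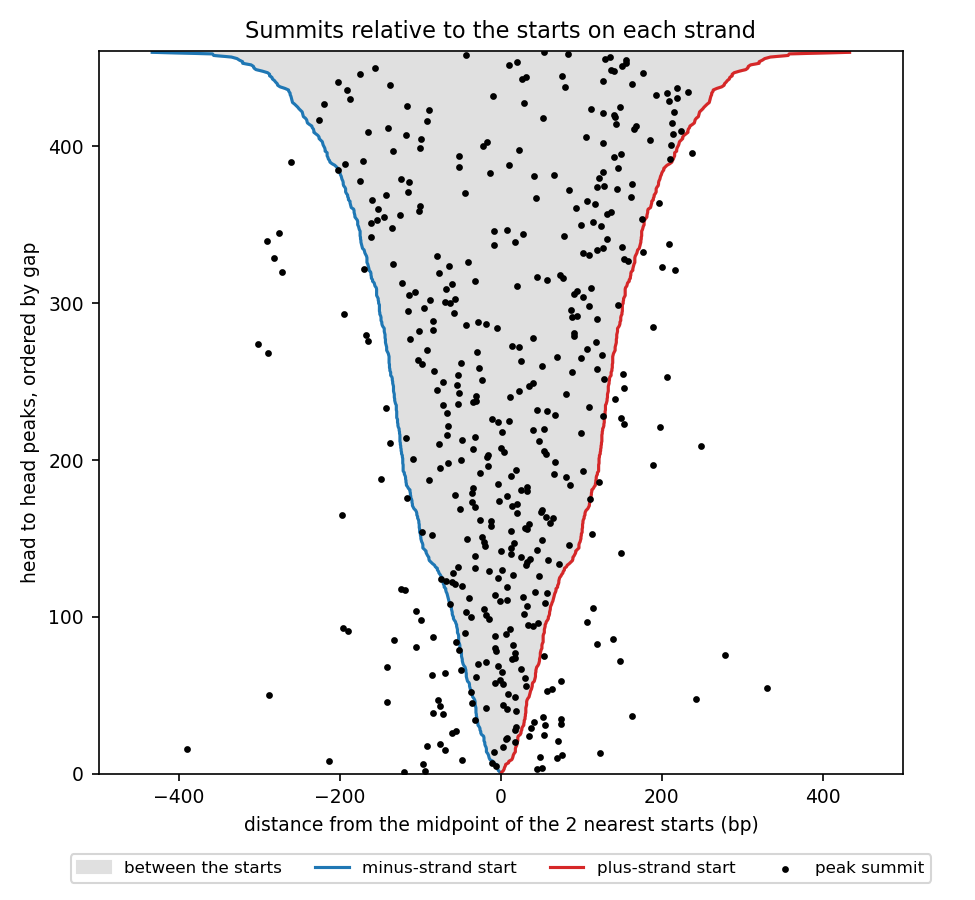
Summits of the 460 head to head members (black points) relative to the midpoint of the nearest starts, in bp on the x axis. Members are stacked on the y axis in order of the gap between the minus-strand start (blue line) and the plus-strand start (red line). Of the points, 360 fall in the grey area between the starts and 100 outside it.

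Summits were spread over the gap rather than centred in it. Among the 359 members with a gap of at least 20 bp and the summit between the starts, the summit stood at a median of 25.9% of the gap from the nearer start. In equal bands from the start to the midpoint, 14.8, 23.4, 22.0, 20.1 and 19.8% of the summits fell, the lowest share next to the start. In gaps over 200 and up to 300 bp the summit lay a median of 73 bp from the nearer start and 51 bp from the midpoint. In gaps over 400 and up to 500 bp these medians were 90 and 141 bp. Summits thus lay nearer to a start than to the middle in gaps over 300 and up to 500 bp. In the 37 members with gaps over 500 bp the medians were 155 and 140 bp. There the rule of 500 bp to both starts keeps the summit between them and away from either by construction. The map of summits shows points along both lines as the gap widens.

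The gap between the starts of head to head members had a median of 259 bp, with quartiles of 136 and 350 bp. Relaxed peaks of the same kind had a median of 256 bp. The smallest gap was 2 bp, at dpa, which encodes the replicative helicase subunit Mcm4, and didum, a myosin V (signal 153.9). The largest was 867 bp, at CG13631 and the non-coding gene lncRNA:CR45650 (signal 104.2). The distance from the summit to the nearer start had a median of 59 bp for members and 72 bp for relaxed peaks of the same kind. At optimal peaks with starts on 1 strand it was 111 bp, but with a start on either side the nearer of them is closer by construction.

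The 100 head to head members with the summit outside the starts had shorter gaps. The gap was at most 100 bp at 50 of them, against 29 of the 360 with the summit between the starts. Their summits lay a median of 44 bp past the nearer start, and up to 372 bp. Their median signal was 88.04, against 100.6 for members with the summit between. The strongest member of all was of this kind.

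At 437 of the 481 members, 90.9% (87.9 to 93.1), both nearest starts belonged to protein-coding genes, against 83.1% (81.0 to 85.1) of the relaxed peaks of the same kind. A protein-coding start stood opposite that of a non-coding RNA at 35 members, and the summit was nearer the protein-coding start in 22 of them. The remaining members paired a protein-coding gene with a tRNA (4) or a pseudogene (3), and a non-coding RNA with a snoRNA (1) or another non-coding RNA (1). The plus-strand start was the nearer one at 266 members and the minus-strand start at 214.

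Peaks between starts on both strands passed into the optimal list more often than other peaks. Over all 30000 pooled relaxed peaks 6.62% were optimal. Of the 1908 with starts on both strands 481 were, or 25.2% (23.3 to 27.2), against 813 of 7141 with starts on 1 strand, 11.4% (10.7 to 12.1), and 691 of 20951 with no start, 3.30% (3.06 to 3.55). The same order was found in each replicate. Among the strongest 1985 peaks of replicate 3 alone the shares were 25.2 and 10.7% of its own relaxed peaks, and in replicate 4 alone 25.2 and 12.3%.

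The share differed with the position of the summit. Summits between head to head starts were optimal in 360 of 1046 cases, 34.4% (31.6 to 37.3). Head to head summits outside the starts were optimal in 14.3% (11.9 to 17.1) and summits at facing starts in 12.8% (8.53 to 18.8), which overlaps the range of the peaks with starts on 1 strand. A summit between head to head starts is upstream of both, so the matching class on 1 strand is the summit upstream of its start, and 593 of 3210 of those were optimal, 18.5% (17.2 to 19.9). Summits at or downstream of a start on 1 strand were optimal in 5.60% (4.92 to 6.36). A head to head summit outside the starts is downstream of the nearer one, and its 14.3% stood above this share. In replicate 3 alone, 33.2% of relaxed summits between head to head starts were among the strongest 1985, against 17.0% of summits upstream on 1 strand. In replicate 4 these were 34.3 and 18.6%. The difference between the classes exceeded the difference between the replicates for each.

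**Figure D2:**
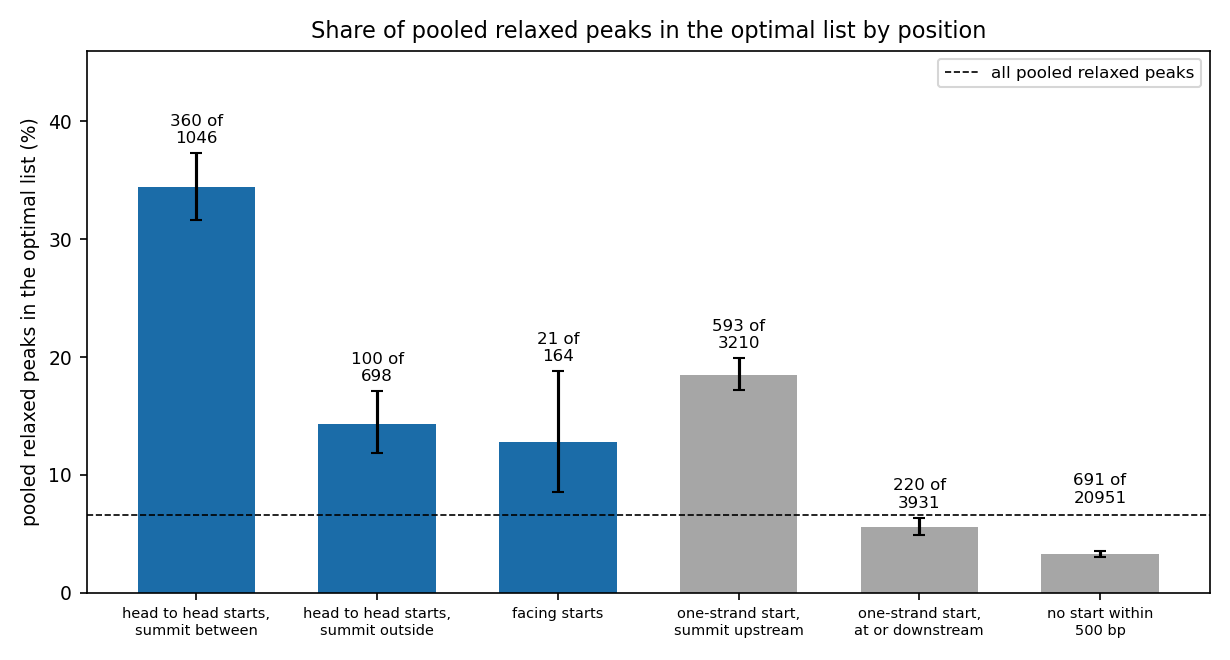
Share of pooled relaxed peaks that are in the optimal list (y axis, %), by where the summit lies, with Wilson 95% intervals. Blue bars are peaks with starts on both strands and grey bars the others, the counts stand above the bars, and the dashed line is the 6.62% over all 30000 relaxed peaks. Summits between head to head starts stand highest, at 34.4%.

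This share differed little with the gap up to 400 bp. For summits between the starts it was 36.2% at gaps up to 100 bp, 42.5% (34.5 to 51) at gaps over 100 and up to 200 bp, 39.3% up to 300 bp and 33.5% up to 400 bp. Above that it was 25.9% up to 500 bp (19.5 to 33.5) and 25.9% up to 1000 bp. The intervals of neighbouring gap classes overlapped. Median signal also differed little by gap among the members, between 90.8 in the class up to 200 bp and 106 in the class up to 300 bp.

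Counted from the annotation instead, 2974 neighbouring starts on opposite strands stood head to head with at most 1000 bp between them, and 435 of these pairs, 14.6%, had an optimal summit within 500 bp of both starts. In the same gap classes the share was 21.1% up to 100 bp, 16% up to 200 bp, 21.9% up to 300 bp and 17.2% up to 400 bp. It was 10.7% up to 500 bp and 3.79% beyond, where the window that reaches both starts narrows. Pairs with an optimal summit had a median gap of 238 bp, against 248 bp for pairs with a relaxed summit only and 311 bp for all pairs without an optimal one. Of pairs of protein-coding genes 401 of 2393, 16.8%, had an optimal summit, against 34 of 581 pairs with a non-coding gene, 5.85%. Most annotated divergent pairs therefore had no optimal peak, and pairs with a non-coding gene had one less often than pairs of coding genes. Among pairs that held any relaxed summit, the shares were 31.1 and 22.4%, with intervals of 28.6 to 33.7 and 16.5 to 29.6.

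The members spread over the arms unevenly. On X, 57 of 340 optimal peaks were members, 16.8% (13.2 to 21.1), against 23.3 to 28.2% on 2L, 2R, 3L and 3R. Of the relaxed peaks between starts on both strands, 18.6% were optimal on X (14.7 to 23.4) and 23.5 to 28.5% on those arms. The interval of X overlapped that of some autosomal arms. Arm 4 held 0 members among its 9 optimal peaks, a share whose Wilson interval reaches 29.9%.

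The signal of the members was close to that of other optimal peaks. The deposited signal, the authors' enrichment value for each peak, had a median of 98.1 at members (quartiles 80 and 133), against 93.4 at peaks with starts on 1 strand and 90.8 at peaks with no start. The intervals of these medians ran from 94.3 to 102, from 90.7 to 96.8 and from 88.4 to 95.1, so the first overlaps the others. Signal above the median of the optimal list was found at 55.3% of members, 49.4% of peaks with starts on 1 strand and 46.9% of those with none. Members made up 5 of the strongest 20, 31 of the strongest 100 and 129 of the strongest 500, a share of 25, 31.0 and 25.8%, against 24.2% of the whole optimal list. At the strongest peaks their share was thus near that in the whole list.

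The strongest member lay at Chro, which encodes the chromatin and spindle protein Chromator, and Ssl1, a subunit of the general factor TFIIH (3L, 22878744 to 22879059). Its signal was 323 in replicate 3, where it ranked 6, and 371.5 in replicate 4, where it ranked 8. The starts stand 105 bp apart and the summit lay 80 bp past the start of Chro, within its transcribed region. The peak between Atat, a tubulin acetyltransferase, and Shc, an adaptor of receptor tyrosine kinases (3L, 9426772 to 9427030), had 268.2 in replicate 3 and 289.8 in replicate 4 (ranks 11 and 19). Its summit was 127 bp from Atat and 125 bp from Shc, 1 bp from the midpoint of the gap.

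The peak of DPCoAC, a mitochondrial carrier of dephospho-coenzyme A, and CG5180 (3R, 20557613 to 20557907) had 203.1 in replicate 3 and 353.3 in replicate 4. Between mRpS23, a mitochondrial ribosomal protein, and CenG1A, which regulates Arf GTPases (2L, 13835343 to 13835580), these values were 210.8 and 289.9. Coq4, which acts in coenzyme Q synthesis, and CG32176 (3L, 17433628 to 17433913) had 198.2 and 303.6. These 3 peaks ranked between 9 and 28 in each replicate, so the strongest members were strong in both. Signals were higher in replicate 4 at all 5 of these peaks, and the scale of each list is its own.

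Further down, Stt3A, the catalytic subunit of the oligosaccharyltransferase, and bves had a pooled signal of 478.2, with ranks of 51 in replicate 3 and 11 in replicate 4. The nearest starts stand 609 bp apart, and the summit lay 167 bp from that of bves. This start and the summit lie inside bves. The gene bves itself begins at 21053963, beside the start of Stt3A on the other strand at 21053937. The peak at eIF6, a factor of ribosome maturation and translation, and asRNA:CR45928 reached 457.6, and its summit lay 55 bp past the start of the non-coding gene, which stands 29 bp from that of eIF6. Bdp1, a subunit of the RNA polymerase III factor TFIIIB, and CG6565 had a signal of 444.7, with the summit 63 and 66 bp from their starts. Some of the strongest summits were thus centred between the starts to within a few bp and others lay outside them.

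The remaining named peaks among the 15 strongest members had signals from 397.7 to 436.9. They were those at Tcs5, a kinase of the tRNA-modifying KEOPS complex, and CHMP2B, an ESCRT-III protein, at CNBP and CG9849, at the protease gene Fur1 and Vps33B, a membrane tethering factor, and at Fbw5 and CG9147. The list ended with CG8372 and CG8360, tank and CG12194, and Pdrg1 and Pal1. All of these 7 ranked between 19 and 48 in both replicates. CG8372 and CG8360, and tank and CG12194, had the summit outside the starts.

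Members were among the strongest peaks of both replicates more often than other optimal peaks were. A relaxed peak of replicate 4 overlapped every member, and one of replicate 3 overlapped 480. The member at Cdc7, a kinase that starts DNA replication, and CG3226 met no relaxed peak of replicate 3 and ranked 611 in replicate 4. Members were among the strongest 1985 in both replicates in 351 cases, 73.0% (68.8 to 76.7), against 64.2% (60.9 to 67.4) of peaks with starts on 1 strand and 63.8% (60.2 to 67.3) of peaks with none. In replicate 3 the share was 86.3% of members against 77.5% of peaks with starts on 1 strand. In replicate 4 it was 85.9 and 85.6%, so members and peaks with starts on 1 strand differed in replicate 3 alone. Peaks with no start were at 80.9% (77.8 to 83.7) in replicate 3 and 81.5% (78.4 to 84.2) in replicate 4, below the members in both, with intervals that overlap those of the members (82.9 to 89.1 and 82.5 to 88.7).

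Spearman's rho between the signals of the replicates was 0.634 across 480 members, 0.575 across 812 peaks with starts on 1 strand and 0.511 across 691 peaks with none, as a description of peaks that share both libraries. The median log2 ratio of replicate 3 to replicate 4 was -0.43 at members, -0.58 at peaks with starts on 1 strand and -0.55 at those with none. Replicate 3 was thus relatively stronger at the members. The median GC content within 50 bp of the summit was 40.6% at members, 42.6% at peaks with starts on 1 strand and 37.6% at peaks with none, and its part in the ratio was not tested.

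Some members ranked far apart. The peak at Plap, which encodes a phospholipase A2 activator, and CG31922 ranked 623 in replicate 3 and 13952 in replicate 4. CG31125 and CG6695 ranked 569 and 10645, and Tsp3A and Seipin, a lipid droplet protein, 1069 and 6821. In the other direction, CG10731 and lbk ranked 14109 in replicate 3 and 603 in replicate 4. The splicing factor gene Sf3a1 and Irc, an immune catalase, ranked 8141 and 914, and Trmt112, a methyltransferase cofactor, and Ilk, the integrin-linked kinase, 10417 and 1334. Each of these 6 had a pooled signal between 68.1 and 77.8, near the lower limit of the optimal list.

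**Figure D3:**
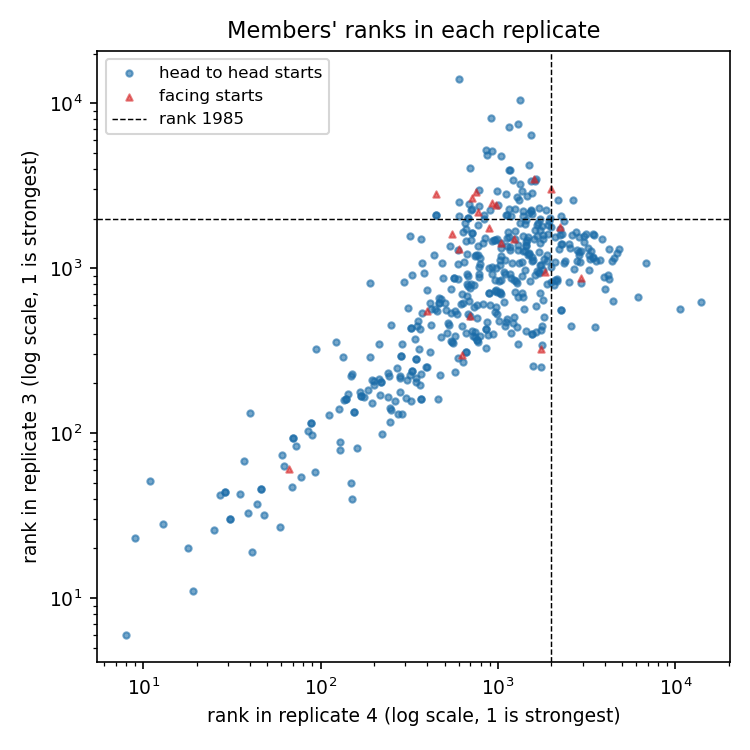
Rank of each member's best overlapping relaxed peak in replicate 4 (x axis) and replicate 3 (y axis), both on log scales with 1 the strongest. Blue circles are head to head and red triangles facing members, and dashed lines mark rank 1985. Of the members, 351 lie below the horizontal and left of the vertical line.

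The facing members were few. Their 21 peaks had a median signal of 87.6 (quartiles 84.9 and 109), within the quartiles of all members, 80 and 133, and close to the 88.04 of head to head members with the summit outside the starts. The strongest, at Adck1, a mitochondrial kinase-like protein, and CG4741, had 318.3 and ranks of 61 in replicate 3 and 66 in replicate 4. Others were the translation termination factor eRF3 with the splicing factor SC35 (104.9), neur, a ubiquitin ligase of Notch signalling, with hyx, a Paf1 complex subunit (85.78), and the deacetylase Sirt1 with the chaperone DnaJ-H (86.41). Antisense or long non-coding RNA genes were near starts in several, such as those at TER94 and RpL37A. The examples after Adck1 were picked from the 21 after their values were seen.

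Short sequence elements at the summits were counted on both strands within 50 bp to either side. The BEAF-32 core, CGATA, was found at 154 of 481 members, 32.0% (28.0 to 36.3), against 22.0% (19.3 to 25) of optimal peaks with starts on 1 strand, 12.2% of those with no start and 13.1% of all 30000 relaxed peaks. The DRE, TATCGATA, which contains that core, was at 38 members, 7.90% (5.81 to 10.7), and at 0.960% of all relaxed peaks. On 1 strand it was at 4.55% (3.32 to 6.21), where the intervals overlap. Within 100 bp of the summit the DRE was at 13.1% (10.4 to 16.4) of members and at 6.15% on 1 strand, below that interval. An extended form, ATCGATAG, which shares all but its last base with the DRE, was at 41 members within 50 bp. Of the 154 members with the core, 49 had 1 of these longer forms and 75 had the core more than 1 time. The longer elements thus accounted for a minority of the members with CGATA.

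Relaxed peaks between starts on both strands held the core in 26.7% (24.4 to 29.2) and the DRE in 5.04% of cases, between the members and the peaks on 1 strand, with intervals that overlap those of the members. At the midpoints of the 2539 annotated pairs without an optimal summit they stood at 22.7 and 4.21%. The core was therefore common at divergent starts with or without an optimal peak. Among summits between the starts alone it was at 34.2% (29.5 to 39.2) of 360, against 24.5% (21.2 to 28.1) of 593 optimal summits upstream of a start on 1 strand. For the same classes in each replicate's own strongest 1985 the shares were 33.3% (28.9 to 38.1) against 25.7% (22.3 to 29.3) in replicate 3, where the intervals overlap, and 34.1% (29.0 to 39.5) against 21.8% (18.5 to 25.4) in replicate 4. Over all summits with starts on both strands they were 31.6% in replicate 3 and 31.1% in replicate 4, against 23.6 and 19.7% with starts on 1 strand.

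The E-box CAGCTG, a site type of helix-loop-helix proteins, was at 53 members, 11.0% (8.52 to 14.1), against 5.41% (4.06 to 7.19) of peaks with starts on 1 strand and 7.75% (6.43 to 9.31) of relaxed peaks with paired starts. In replicate 3 alone it was 9.69% against 5.42% on 1 strand, and in replicate 4 alone 10.7% against 6.97%. The share over all relaxed peaks was 6.55%, and at the midpoints without an optimal summit 5.75%. The members' interval overlapped that of relaxed peaks with paired starts. Among each replicate's strongest peaks the E-box was more frequent with starts on both strands, with intervals that overlapped in replicate 4 (8.14 to 13.9 and 5.45 to 8.89). Optimal summits between head to head starts held it in 12.2% (9.23 to 16), against 5.56% (3.99 to 7.71) upstream on 1 strand. For these classes replicate 3 gave 9.67 and 5.57% and replicate 4 gave 9.32 and 6.46%, with overlapping intervals in both.

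Motif 7, a core promoter element, was at 37 members, 7.69% (5.63 to 10.4), and 5.90% (4.48 to 7.74) of peaks with starts on 1 strand. It was at 6.77% of relaxed peaks with paired starts, 2.48% of the midpoints without an optimal summit and 1.86% of all relaxed peaks. Within 100 bp of the summit Motif 7 was at 18.7% (15.5 to 22.4) of members and at 10.6% of peaks with starts on 1 strand, below that interval. Within 50 bp the intervals of members and peaks on 1 strand overlapped. There the share was 4.67% among the strongest peaks of replicate 4 with paired starts, against 4.14% with starts on 1 strand. Motif 1 was at 9 members and Motif 6 at 8. The TATA box was at 3.95% (2.54 to 6.09) of members against 3.20% (2.19 to 4.64) of peaks on 1 strand, the initiator at 20% (16.6 to 23.8) against 22.6% (19.9 to 25.6), and Pho at 16.6% (13.6 to 20.2) against 19.2% (16.6 to 22.0). For these 3 the intervals overlap.

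Repeats were rare at the members. The GAGA factor word, GAGAGAG, was at 3 of 481, 0.624% (0.212 to 1.82), against 27 of 813 peaks with starts on 1 strand, 3.32% (2.29 to 4.79), and 2.09% of all relaxed peaks. The CA repeat was at 4 members, 0.832%, against 2.09% on 1 strand and 2.89% of all relaxed peaks. Relaxed peaks with paired starts held GAGAGAG in 1.35% (0.858 to 2.13) of cases, an interval that overlaps that of the members, and the CA repeat in 2.33%. At the midpoints without an optimal summit these were 1.65 and 0.630%, so low shares were not particular to the members. For GAGAGAG against peaks on 1 strand the intervals overlapped within replicate 3, with 0.581 against 2.38%, and within replicate 4, with 1.33 against 2.96%.

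**Figure D4:**
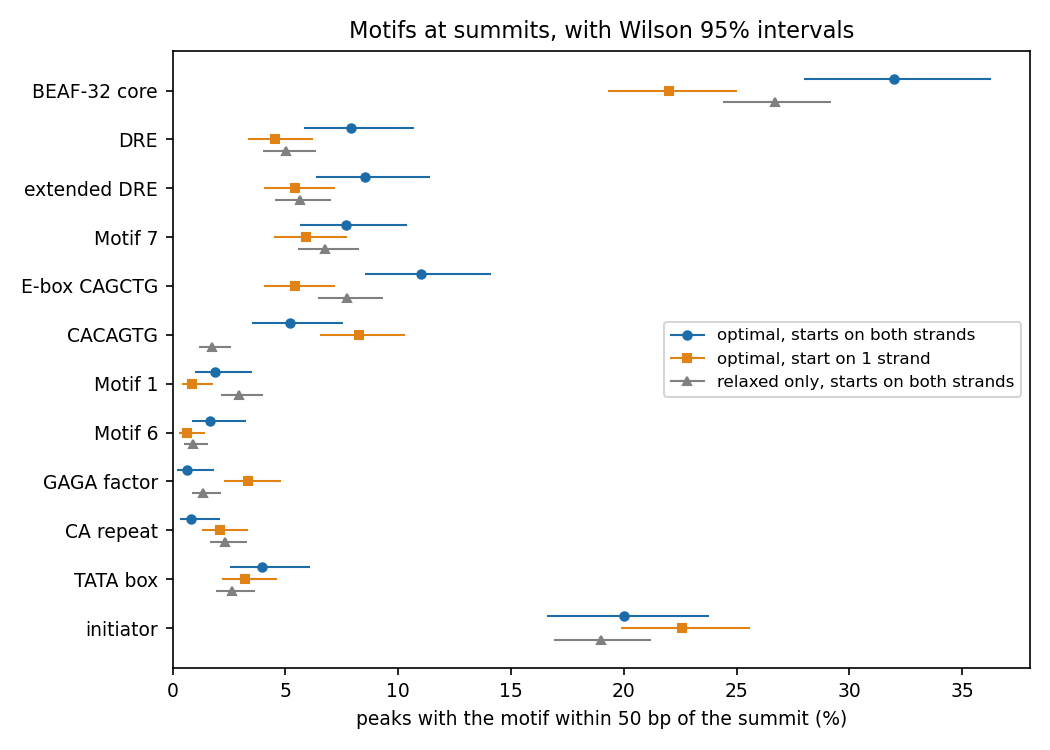
Share of peaks with each element within 50 bp of the summit (x axis, %), with Wilson 95% intervals. Blue circles are optimal peaks with starts on both strands (n = 481), orange squares optimal peaks with starts on 1 strand (n = 813) and grey triangles relaxed peaks with starts on both strands that overlap no optimal one (n = 1329). CGATA stands at 32.0, 22.0 and 26.7%, and CACAGTG at 5.2, 8.24 and 1.73%.

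The word CACAGTG behaved differently from the promoter elements. It was at 25 members, 5.2% (3.54 to 7.56), against 8.24% (6.54 to 10.3) of optimal peaks with starts on 1 strand and 8.54% of those with none. It was at 1.73% (1.16 to 2.58) of relaxed peaks with paired starts, 1.02% of midpoints without an optimal summit and 2.51% of all relaxed peaks. Within 100 bp of the summit it was at 7.48% (5.45 to 10.2) of members and at 13.3% of optimal peaks with starts on 1 strand, above that interval. Within 50 bp the word was thus more frequent at optimal than at weaker peaks with paired starts. There its interval at members overlapped that of optimal peaks elsewhere. It was in 3 of the 20 strongest members, at DPCoAC, at Stt3A and bves, and at Lon and PIG-F. Of these 20, 4 held the BEAF-32 core, 1 the E-box and 0 the DRE or Motif 7, counts too small to rank the elements.

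The DNA around the word is shown for 6 of the strongest members in which it lies outside exons, each read so that the word, in capitals, reads forward. The Stt3A/bves line lies within bves and the CG7536/Ada3 line within CG7536, each by a start inside that gene.
DPCoAC/CG5180, chr3R:20557756-20557782, plus strand: ctaactgtggCACAGTGgtgcaaatta
Stt3A/bves, chrX:21054410-21054436, minus strand: tttcgtggtgCACAGTGgtcgcaattg
Lon/PIG-F, chr3L:19612224-19612250, plus strand: tctattgttgCACAGTGgtaccggtga
Agpat2/prg, chr2L:8464408-8464434, minus strand: taagccgctgCACAGTGggttacttaa
CG10584/Polr3E, chr3L:21031764-21031790, minus strand: agctgatcggCACAGTGgtatacaatc
CG7536/Ada3, chrX:18085697-18085723, minus strand: gcgggttatgCACAGTGggccaaacaa

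All 6 have a G on either side of the word. Over the 26 matches at members, the next base was G in 15 and the base before it G in 17. At optimal peaks with starts on 1 strand these were 46 and 53 of 72 matches. At the 23 matches of relaxed peaks with paired starts the next base was G in 6 and the base before it in 4. At relaxed peaks with starts on 1 strand that overlapped no optimal peak these were 70 and 71 of 142 matches, and over all pooled relaxed peaks 52.3 and 52.1% of 775, near the 57.7 and 65.4% of the members. The G on each side was thus common beyond the optimal peaks, and the weaker peaks with paired starts, with few matches, stood below the other sets. Lon encodes a mitochondrial protease, PIG-F acts in the synthesis of GPI anchors, Polr3E is an RNA polymerase III subunit and Ada3 a subunit of acetyltransferase complexes.

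The counts of elements by strength differed between them. In members ordered by signal and cut into groups of 120 or 121, the DRE was at 5, 11, 10 and 12, and Motif 7 at 5, 7, 11 and 14, from the strongest group to the weakest. CACAGTG was at 9, 3, 11 and 2 and the core CGATA at 33, 38, 45 and 38. Median signal was 85.8 with Motif 7 and 99.8 without it, and 95.6 with CGATA and 100.1 without it. At 234 members, 48.6%, at least 1 of the DRE, its extended form, CGATA, Motif 7, CACAGTG, the E-box, Motif 1 or Motif 6 was found, and 247 held none of them.

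The genes at the members were counted against the 3267 genes with a start within 500 bp of any pooled relaxed summit between starts on both strands, of which 957, or 29.3%, were at a member. The lists of genes were chosen with earlier results of these data known and have no test here. Cytosolic ribosomal protein genes, a list that also counts RpLP0-like, stood at 24 of 36, 66.7%. RpS27, beside the nucleoporin gene Nup37, had signals of 143.6 in replicate 3 and 184.1 in replicate 4, RpL7, beside Ripalpha, 147.6 and 157.4, and RpL14, beside Nelf-E, 97.42 and 136.9. The summit was nearer the start of the ribosomal protein gene than the opposite start in 20 of these 24, at a median of 48 bp, against 162 bp to the opposite start. The signals of the 24 ranged from 68.3 to 331 and their ranks in the optimal list from 1887 to 55. A further 22 cytosolic ribosomal protein genes were near an optimal peak but at no member. Of the 82 genes of this list near any pooled relaxed summit, 46 were near an optimal peak, 56.1%. Of all genes near such a summit this share was 20.7%. The high share was thus not particular to starts on both strands.

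Vacuolar ATPase genes, whose products acidify organelles, stood at 6 of 9, 66.7%, led by Vha16-5 (216) and Vha55 (192), but 9 genes allow little precision. Mediator genes, which link regulators to RNA polymerase II, stood at 7 of 15, 46.7%, with MED30 (273) and MED27 (161) highest. Proteasome genes stood at 7 of 17, 41.2%, with Rpn5 (197) and Rpn6 (103). In these lists the summit was nearer the list gene's own start in 3 of 6, 3 of 7 and 3 of 7 cases. Among the remaining lists with members this count was highest relative to the list for splicing factors, 4 of 5, and for DNA replication and repair and for the cell cycle and spindle, 5 of 7 each, and lowest for oxidative phosphorylation, 3 of 9. Counts this small do not separate the lists.

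Several housekeeping lists stood close to the 29.3% of all genes. Mitochondrial ribosomal protein genes were at members in 14 of 42 cases, 33.3%, with mRpS23 (504) and mRpS10 (389.9), and oxidative phosphorylation genes in 9 of 29, 31.0%, with ND-MWFE (167) and COX5A (150.5). Autophagy and lysosome traffic genes counted 14 of 39, with Vps33B (432) and Snx3 (192), and genes of insulator and chromatin factors 9 of 26, with Chro (696) and Ino80 (264). The count was 5 of 17 for translation factors (eIF6, 458, and eIF1, 111), 5 of 15 for aminoacyl-tRNA synthetases (GluProRS, 108, and IleRS, 104) and 5 of 14 for nucleoporins (Nup37, 331, and Nup98-96, 103). These shares lie near that of all genes, and no difference is read from lists this short.

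Other lists stood at or below it. RNA polymerase and general factor genes counted 8 of 28 (Ssl1, 696, and Polr3E, 159.9), splicing factors 5 of 19 (snRNP-U1-C, 113, and SF2, 87.0) and genes of DNA replication and repair 7 of 26 (mus301, 151, and Rad60, 125). The count was 6 of 23 for tRNA and rRNA processing (Fib, 331, and Trmt6, 196) and 7 of 29 for the cell cycle and spindle (aurA, 83.3, and Cdc7, 77.6). Genes annotated as non-coding RNA, mostly long or antisense ones but with the microRNA gene mir-2496 among them, were at members in 42 of 247 cases, 17.0%, led by asRNA:CR45928 (458). Segmentation, Hox and fate genes were at members in 0 of the 4 that had a relaxed peak between starts on both strands.

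**Figure D5:**
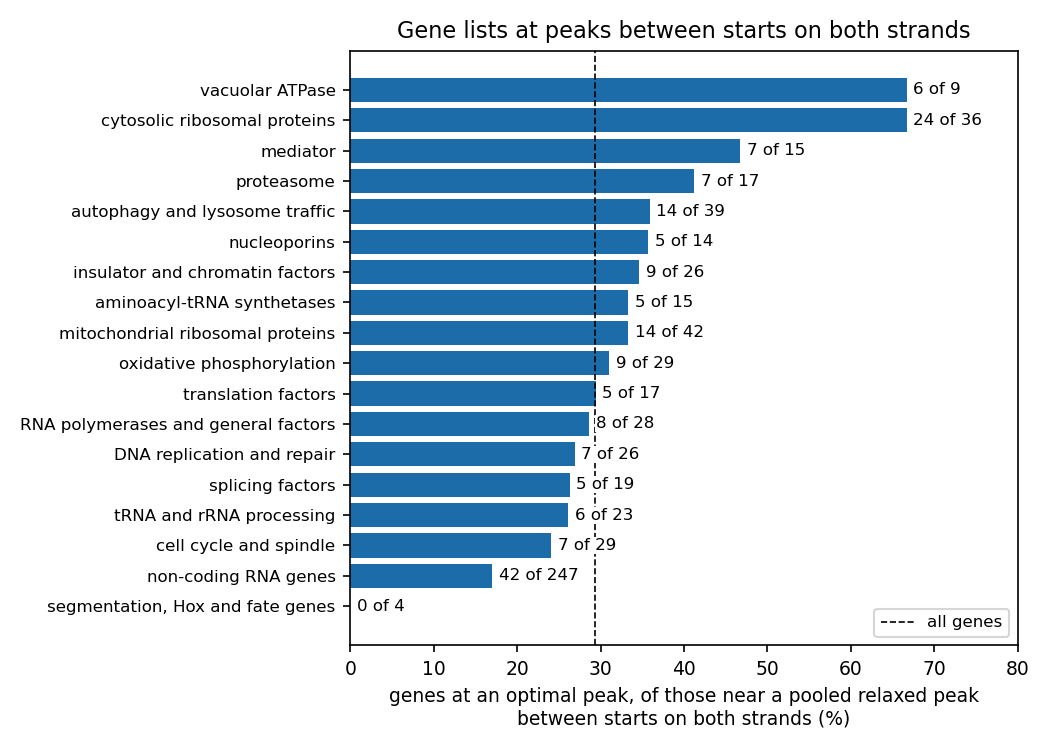
Share of the genes of each list that have a start within 500 bp of a member (x axis, %), of those near any pooled relaxed peak between starts on both strands, with counts beside the bars. The dashed line is the 29.3% of all such genes. Vacuolar ATPase and cytosolic ribosomal protein genes stand highest, at 66.7% each.

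At 11 members' pairs both nearest protein-coding genes were in 1 of the lists, which was counted after the values were seen. These were Dref and RpL13, Chro and Ssl1, RpS27 and Nup37, RpL28 and eIF1, Cdk7 and snf, Csl4 and Nup160, Vha55 and Snx3, Prosbeta1 and Rrp42, MED7 and Cap-H2, mRpL21 and rept, and RPA1 and Mcm2. Only the last, both for DNA replication, shared a list. A peak at such a pair counts for both lists. Dref, the DRE-binding factor itself, shared its peak of signal 149 with RpL13.

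The distance limit separated peaks of like geometry. Just inside 500 bp, the farther start was at 496 bp for Spase22-23, a signal peptidase subunit, and mask (signal 83.3) and at 498 bp for asRNA:CR44987 and galectin (102). Just outside, it was at 501 bp for MED19 and CG7430 (72.4), at 501 bp for dpr14 and spidey (126), at 502 bp for CG12929 and RpL31 (100.7) and for lncRNA:CR43918 and Dp (111), and at 503 bp for Pax and Alp12 (81.9) and for Acbp1, an acyl-CoA-binding protein, and the mechanosensitive channel Piezo (376). The weakest member, at Bap60 of the Brahma chromatin remodelling complex and CG12096, had a signal of 66.85, and the strongest relaxed peak of the same kind outside the optimal list, at Rab30 and Caper, 66.84.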

How the data were processed

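ChIP-seq peak lists of 2 biological replicates, 3 and 4, of 1 group were used in their dm6 versions. Per the deposited file listing, the authors made a relaxed list of peaks and background of each replicate and of both pooled, and derived the optimal list by the irreproducible discovery rate. The aligner and caller are not named, and the cutoff is not given in the sources used here. The deposited signal is the authors' enrichment value per peak and was used only within a list. The deposited −log10 q value was not used. Read counts were not used, so depth is unknown.

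Starts came from Ensembl release 115 without transposable elements. Head to head means that the nearest minus-strand start lies at or left of the nearest plus-strand start. The start of every annotated transcript counted, so a nearest start can lie inside its gene. Strongest means the 1985 highest signals of a list, and a replicate peak met a member by 1 bp of overlap. Elements were searched on both strands within 50 bp of summits, and sequences on arm 2R or with exons were left out of those printed. Shares have Wilson 95% intervals and medians order-statistic intervals, over peaks or genes only. Peaks are not replicates and no test was run. Values in each replicate alone stand in for replicate error, and those by class of peak were added after the pooled shares were seen. The nearest starts and elements were recovered on simulated peaks. Python 3.11.15, NumPy 2.4.6 and SciPy 1.17.1 were used. The members, gene lists and elements were chosen with earlier results of these data known. The genes named are those at the 15 strongest members, up to 2 with the highest signal per list, the 3 most different in rank in each direction, and those at the limits of gap and rule. Exceptions are stated.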

Additional observations from a re-analysis of the deposited data

How the results depend on the processing

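Of 99 recomputed values, 64 stayed within the interval of the reported value (the number of peaks, within 1.5 times) and 35 did not. With a start window of 250 bp there were 307 peaks, a median gap of 202 bp, 34.9% of relaxed peaks optimal, 9.75% of annotated pairs with an optimal summit and 93.5% coding pairs. With 1000 bp the gap was 298 bp and these shares 16.4, 18.6 and 87.2%. With the most upstream start of each gene, 92.7% were head to head, the gap was 248 bp and 71.3% of summits lay between. With protein-coding starts alone, 97.9% were head to head and 16.7% of pairs had a summit. The stronger part of the optimal list gave 266 peaks, 13.9% of relaxed peaks, 82.9% between, a signal of 129, 97.0% among the strongest of both replicates, Motif 7 at 5.26% and 8.31% of pairs. Windows of 25 bp on either side of the summit gave 3.33% (DRE), 17.7% (CGATA), 3.95% (Motif 7) and 2.08% (CACAGTG), and those of 100 bp 13.1, 47.4 and 18.7% for the first 3. Requiring summits within 100 bp gave 66.5% among the strongest of both replicates. A wider or narrower window changes what is counted, and other causes were not tested. With 1 replicate left out, the strongest 1985 peaks of the other stood in for the optimal list. This gave 450 to 516 peaks, 25.2% of relaxed peaks in each, and 95.3 to 96.5% head to head. Gaps were 256 to 261 bp, 72.5 to 78.9% of summits lay between, and signals were 41.3 to 61.2 on their own scales. Of the 481 members, 85.9 to 86.3% were among the strongest of that 1 replicate, which asks less than both. The DRE was at 6.59 to 7.33%, CGATA at 31.1 to 31.6%, Motif 7 at 4.67 to 7.75% and CACAGTG at 3.88 to 5.33%. Of pairs, 13.7 to 15.8% had a summit, and 91.1 to 91.9% of the peaks were at coding pairs. No paired analysis was possible because there was 1 group. Signal over other anti-GFP experiments was not measured, depth is unknown, and intervals cover counting over peaks only.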
